A study of Ovis aries with 9 samples.

Results

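The 34 genes described here encode proteins that bring pyruvate into mitochondria, turn it into acetyl-CoA and oxidise it in the tricarboxylic acid cycle. They also include enzymes of the malate, aspartate and glycerol phosphate shuttles and cytosolic partners of cycle enzymes. They do not include the mitochondrial carriers of cycle intermediates, which were read from a separate list. They were found by gene name among the 22605 loci of the expression table, and where a name had several loci the locus with the highest mean was kept. All 34 names were found and all 34 passed the filter on low values, which 13086 loci passed in all. Expression was measured by RNA sequencing of a long back muscle, the longissimus dorsi, in Chinese merino sheep fetuses. The series follows fetal muscle over late development, with 3 libraries each from gestation days 85, 105 and 135 (D85, D105 and D135). The groups share breed and tissue, and the labels name no treatment or genotype. Nothing in the labels says whether the 3 libraries of 1 day are separate fetuses, and every p-value below therefore rests on a spread between libraries that may be only technical.

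In the mitochondrion, the pyruvate dehydrogenase complex turns pyruvate into acetyl-CoA, and kinases that phosphorylate the complex turn it off while phosphatases turn it back on. The tricarboxylic acid cycle then oxidises the acetyl group and passes electrons to the respiratory chain, and its intermediates also feed the synthesis of fatty acids, glucose and amino acids. Skeletal muscle depends on this route for sustained contraction, and shuttles based on malate, aspartate and glycerol phosphate carry electrons from cytosolic NADH into the mitochondrion.

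Values are FPKM, fragments scaled by transcript length and by mapped fragments, and levels of different genes are compared on that scale. Changes are differences of mean log2(FPKM + 1), which understates the change of low genes, with the standard error (SE) from limma. A gene rose or fell only where limma's p, adjusted over all 13086 loci by the Benjamini-Hochberg method, was under 0.05. Depth in reads is unknown. Totals ranged from 395797 to 489269.6 FPKM per library. Steps between low values gave a depth relative to D85 replicate 1 of 0.993 to 1.20, and D135 had the highest values (1.12 to 1.20). The median tested locus changed by -0.02 from D85 to D105, by -0.33 from D105 to D135 and by -0.35 from D85 to D135, and the members' changes are to be read relative to these shifts. For D135 against D105, 585 loci were called higher and 4579 lower. Median-of-ratios scaling, which sets the median locus to no change, gave 1344 higher and 957 lower, and quantile normalization gave 986 and 1072.

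The muscle label was checked against markers of 8 cell types. The 10 fibre markers summed to between 7283 and 9723 FPKM in D85, between 8910.0 and 11992 in D105 and between 17227 and 20735 in D135, and 4 of the 10 rose from D105 to D135. ACTA1, skeletal actin, stood at 1316, 1775 and 933 FPKM in D105 and at 4159.8, 5253 and 6464 in D135. MYLPF, a myosin light chain of fast fibres, stood at 5209, 2641 and 2876 and then at 4417, 5810.0 and 4935, a change of 0.56 ± 0.29 that was not called (adjusted p = 0.161). It was 1 of 6 fibre markers not called, and the changes of the 10 ran from -0.31 to 2.0, the last being ACTA1. D105 replicate 2 stood apart from the other D105 libraries, with 115 FPKM of 8 adipocyte markers against 6.30 and 9.11, 321 FPKM of 6 tendon and cartilage markers against 12.6 and 17.0, and 3997 FPKM of 5 fibroblast markers against 1819 and 1815. D135 replicate 2 had 79.6 FPKM of the adipocyte markers against 35.7 and 14.3 in the other D135 libraries. In D135 replicates 1, 2 and 3 the tendon and cartilage markers summed to 3.36, 55.2 and 113 FPKM. The fibroblast markers there summed to 1018, 1273 and 1877 FPKM. D85 replicate 1 had 17.5 FPKM of the adipocyte markers against 3.64 and 2.95 in the other D85 libraries. The 6 endothelial markers summed to 143 to 169.9, 217 to 232 and 160.1 to 198 FPKM in the days in order, and the 4 Schwann cell markers to 9.94 to 16.2, 20.2 to 32.7 and 20.5 to 46.8. The 6 leukocyte markers stayed between 11.6 and 22.4 FPKM and the 3 erythroid markers between 1.58 and 6.74. No marker found was at 0 in every library.

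From D105 to D135, 20 of the 34 genes rose and 0 fell, where 4.47% of all tested loci were called higher and 35.0% lower. The median change of the members was 0.53 on the log2 scale, against -0.33 over all tested loci. Their summed level was 549, 572 and 506 FPKM in D85, 576, 576 and 571 in D105 and 947, 1023 and 868 in D135. The sum therefore lay within a narrow band in D105 and was higher in every D135 library than in every earlier library. It made up 0.112% to 0.134% of all FPKM in the 6 earlier libraries and 0.208% to 0.247% in D135. Each D135 library was above each D105 library in 20 of the 34 members (58.8%), against 6.43% of all tested loci. These were the same 20 genes that were called. Calls and separation come from the same libraries, so the separation is no further evidence.

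The summed fibre markers were also higher in D135 than in D105, and their part in the increase was not tested. Within D135, replicates 1, 2 and 3 had 17227, 20562 and 20735 FPKM of fibre markers and 947, 1023 and 868 FPKM of the members. How both sums go together over 3 libraries was not tested. In bulk muscle, a change in how much of the tissue is fibre and a change in RNA per fibre cannot be told apart. Without D105 replicate 2 the count was 17 higher and 0 lower, and without D135 replicate 2 it was 16 and 0. With median-of-ratios scaling 23 members rose and with quantile normalization 22, with median changes of 0.94 and 0.68.

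**Figure D1:**
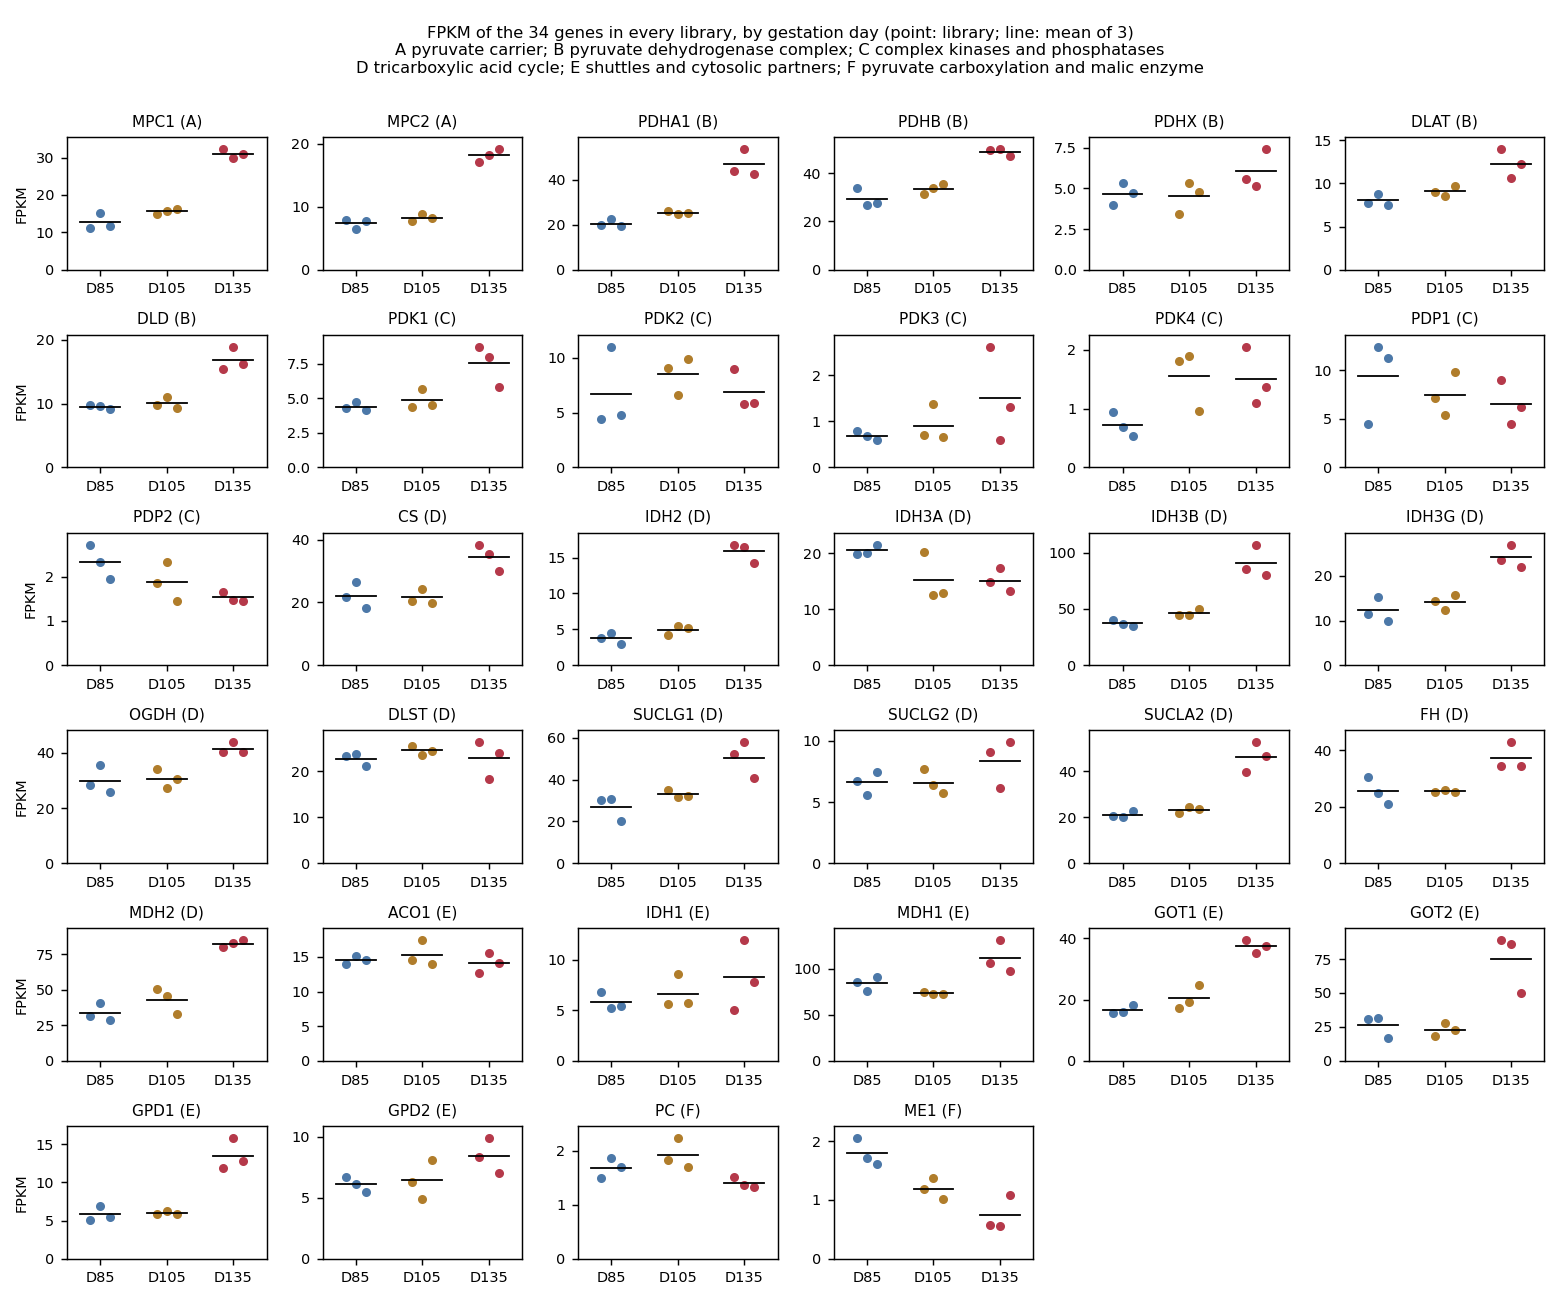
FPKM of each of the 34 genes (y axis, linear from 0, scaled by gene) against gestation day (x axis), with 1 panel per gene and a letter for its role. Points are single libraries and lines are means of 3. In 20 of the 34 panels all D135 points lie above all D105 points, and in that of PC all lie below.

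From D85 to D105 no member was called, with 0 higher and 0 lower by limma, against 0.145% and 0.0535% of all tested loci. The unadjusted p was under 0.05 for 7 members, among 12.3% of all tested loci. Of these, PDK4, MPC1, PDHA1, IDH2 and IDH3B had higher means in D105, and ME1 and IDH3A had lower means. The median change of the members was 0.12, against -0.02 over all tested loci. Of the 34 changes, 25 were above 0, a count that was not tested against that of all loci.

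**Figure D2:**
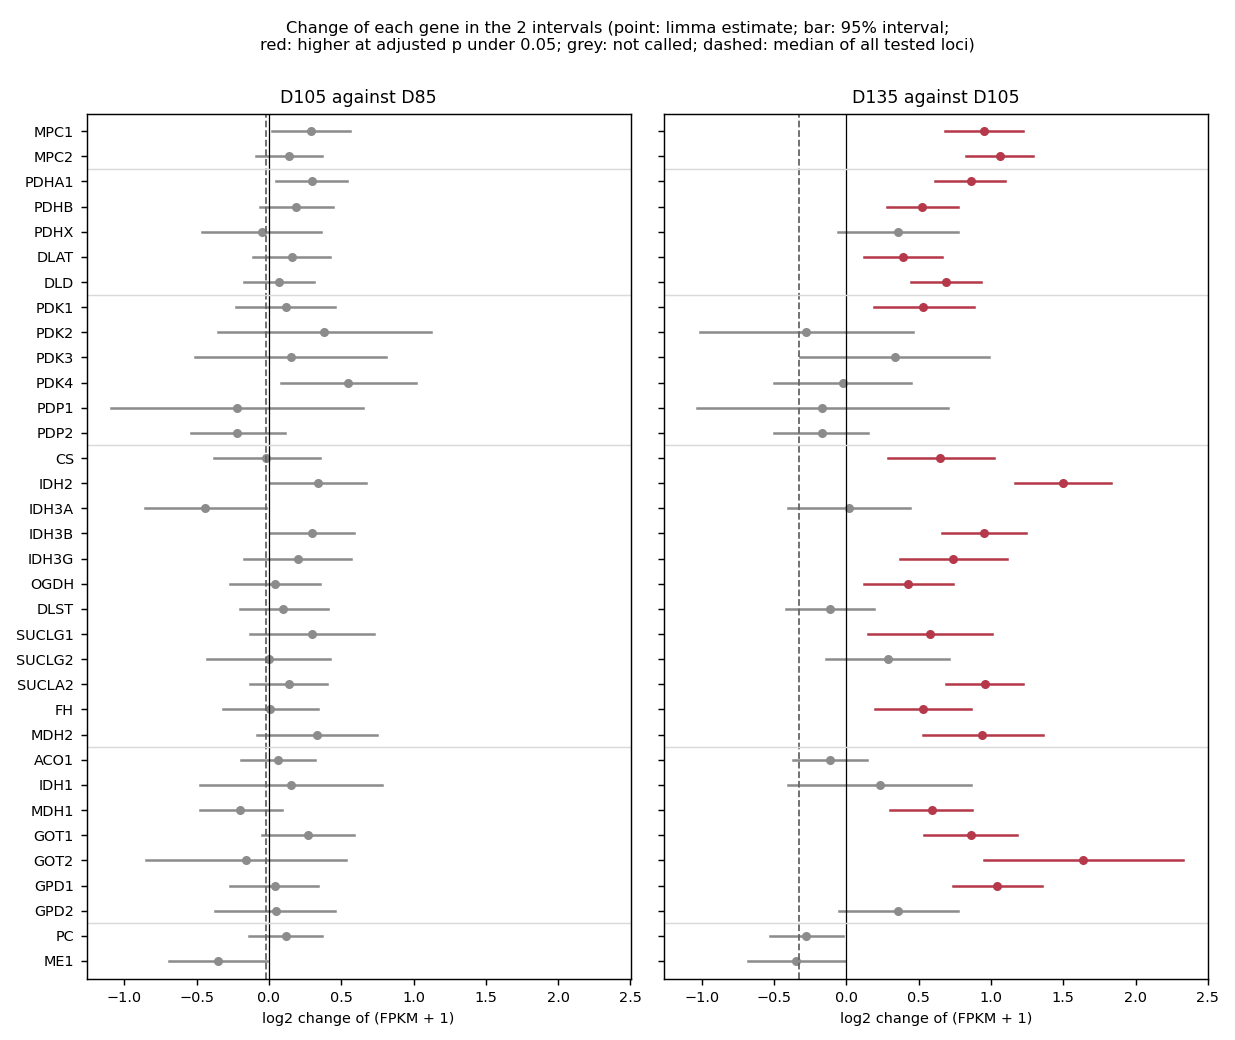
Change of each gene in log2(FPKM + 1) from D85 to D105 and from D105 to D135, with 95% confidence intervals from limma. Red marks genes called higher at an adjusted p under 0.05, grey the rest, and the dashed line the median of all tested loci. The earlier interval holds 0 red genes and the later holds 20.

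Both subunits of the mitochondrial pyruvate carrier, through which pyruvate crosses the inner membrane, rose from D105 to D135. MPC1 stood at 11.2, 15.1 and 11.6 FPKM in D85, at 14.9, 15.7 and 16.3 in D105 and at 32.3, 29.9 and 31.0 in D135. Every D135 library held close to 2 times the D105 level, and the ranges of D85 and D105 overlapped. The change was 0.95 ± 0.12 (SE, adjusted p = 0.00151), with means of 15.6 ± 0.705 and 31.0 ± 1.19 FPKM (SD, n = 3). MPC2, its partner, stood at 7.90, 6.50 and 7.72 FPKM in D85, at 7.69, 8.86 and 8.17 in D105 and at 17.2, 18.2 and 19.2 in D135. The D135 libraries were again apart from all others, and the change was 1.06 ± 0.10 (adjusted p = 0.000837). Its level was below that of MPC1 in every library.

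Of the 5 subunits of the pyruvate dehydrogenase complex, 4 rose from D105 to D135, and their median change was 0.52. PDHA1, the catalytic alpha subunit that the kinases phosphorylate, stood at 19.9, 22.4 and 19.3 FPKM in D85, at 26.0, 24.9 and 25.3 in D105 and at 44.2, 53.8 and 42.8 in D135. Each day lay wholly above the day before, but only the later step passed the test, with a change of 0.86 ± 0.11 (adjusted p = 0.00157) after one of 0.30 ± 0.11 (adjusted p = 0.324). PDHB, the beta subunit that pairs with it, stood at 33.9, 26.8 and 27.7, then 31.4, 33.7 and 35.7, then 49.4, 50.0 and 46.9 FPKM. It had more FPKM than PDHA1 in D85 and D105, while in D135 the ranges of both genes overlapped. Its change of 0.52 ± 0.11 (adjusted p = 0.00773) was the smaller of the pair, a difference that was not tested.

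DLD, the dihydrolipoamide dehydrogenase that also serves the 2-oxoglutarate dehydrogenase complex, stood at 9.82, 9.59 and 9.12 FPKM in D85, at 9.83, 11.1 and 9.28 in D105 and at 15.5, 18.9 and 16.2 in D135. The first 6 values lay close together and the D135 values above them, and the change was 0.69 ± 0.10 (adjusted p = 0.00284). DLAT, the acetyltransferase core, stood at 7.77, 8.81 and 7.56, then 9.0, 8.53 and 9.69, then 14.0, 10.6 and 12.3 FPKM. Its rise of 0.39 ± 0.12 (adjusted p = 0.0302) did not hold without D105 replicate 1, D105 replicate 2, D135 replicate 1 or D135 replicate 3, where the adjusted p was 0.0738, 0.0813, 0.0840 and 0.0721. It was also lost with a replicate block (adjusted p = 0.0627) and with only the compared days in the fit (adjusted p = 0.0525). PDHX, which anchors DLD to that core, was the lowest subunit, at 3.43 to 5.34 FPKM in D105 and 5.56, 5.15 and 7.43 in D135. The days overlapped, and the change of 0.36 ± 0.18 (adjusted p = 0.147) had a 95% confidence interval from -0.06 to 0.77. PDHX was called with median-of-ratios scaling (0.73, adjusted p = 0.0266) and with quantile normalization (0.69, adjusted p = 0.0343).

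Several of the 6 kinases and phosphatases that switch the complex were uneven between libraries, and only 1 of the 6 rose. That gene was PDK1, a kinase induced by low oxygen in many cells, at 4.26, 4.72 and 4.15 FPKM in D85, 4.38, 5.65 and 4.51 in D105 and 8.71, 7.97 and 5.84 in D135. The lowest D135 library was barely above the highest D105 library. The change was 0.53 ± 0.15 (adjusted p = 0.0254), and it was lost with only the compared days in the fit (adjusted p = 0.0526). It was also lost without D105 replicate 1, D105 replicate 3, D135 replicate 1 or D135 replicate 2, with an adjusted p of 0.0765, 0.0714, 0.0731 and 0.0803.

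PDK2, the most widely expressed kinase, stood at 4.42, 11.0 and 4.75 FPKM in D85, at 9.06, 6.58 and 9.87 in D105 and at 8.94, 5.83 and 5.89 in D135. Replicates of a day differed as much as the days did, and the change from D105 to D135 was -0.28 ± 0.32 (adjusted p = 0.518). PDK4, the kinase that fasting and fatty acids induce in muscle, stood at 0.949, 0.690 and 0.543 FPKM in D85, at 1.81, 1.89 and 0.958 in D105 and at 2.05, 1.09 and 1.36 in D135. All D105 and D135 libraries were above all D85 libraries, the lowest by very little, yet neither the change of 0.55 ± 0.20 to D105 (adjusted p = 0.338) nor that of 0.52 ± 0.20 from D85 to D135 (adjusted p = 0.0667) passed. The latter was called with median-of-ratios scaling (0.77, adjusted p = 0.0199), with quantile normalization (0.79, adjusted p = 0.0169), with a replicate block (adjusted p = 0.0479) and without D105 replicate 3 (adjusted p = 0.0419). PDK3 had 1 FPKM or more in only 3 libraries, and its D135 values of 2.62, 0.601 and 1.31 spanned all those of the earlier days.

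PDP1, the calcium-stimulated phosphatase that turns the complex on, stood at 4.50, 12.4 and 11.2 FPKM in D85, at 7.10, 5.39 and 9.84 in D105 and at 8.95, 4.50 and 6.26 in D135. The days overlapped throughout, and the change from D105 to D135 was -0.17 ± 0.38 (adjusted p = 0.751). PDP2, the other phosphatase, stood at 2.72, 2.33 and 1.94, then 1.85, 2.32 and 1.46, then 1.66, 1.48 and 1.46 FPKM. All D135 libraries were below all D85 libraries, a pattern that 48.8% of all tested loci had. The change was -0.39 ± 0.14 (adjusted p = 0.0528), close to the -0.35 of the median locus. That change was called without a variance trend (adjusted p = 0.0482), with library weights (0.0372), with only the compared days (0.0461) and without D85 replicate 3 (0.0418), D105 replicate 2 (0.0383) or D105 replicate 3 (0.0421). It was -0.09 with median-of-ratios scaling (adjusted p = 0.670) and -0.07 with quantile normalization (adjusted p = 0.695), so its size depended on the scaling. With median-of-ratios scaling the changes of PDK2, PDP1 and PDP2 from D105 to D135 were 0.11, 0.22 and 0.11, so none of these genes kept its sign across scalings.

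In the cycle itself, 9 of 12 genes rose from D105 to D135, with a median change of 0.62. The entry step is catalysed by CS, citrate synthase, whose locus the table joins with CNPY2, so its reads cannot be divided between both genes. That locus stood at 21.6, 26.5 and 18.1 FPKM in D85, at 20.6, 24.4 and 19.9 in D105 and at 38.4, 35.3 and 30.1 in D135. D85 and D105 overlapped, D135 lay above both, and the change was 0.65 ± 0.16 (adjusted p = 0.0144).

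IDH2, the mitochondrial NADP-dependent enzyme, stood at 3.77, 4.45 and 2.98 FPKM in D85, at 4.19, 5.54 and 5.18 in D105 and at 16.8, 16.5 and 14.3 in D135. Its D135 libraries held about 3 times the D105 level, and the change was 1.5 ± 0.14 (adjusted p = 0.000875). In rank by mean FPKM among the 34 genes it moved from 29 in D85 to 27 in D105 and 18 in D135.

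The NAD-dependent enzyme, which runs the oxidative cycle, is built of subunits from IDH3A, IDH3B and IDH3G. IDH3B, a regulatory subunit, stood at 40.6, 36.3 and 34.9 FPKM in D85, at 44.2, 44.9 and 49.5 in D105 and at 85.2, 107 and 80.0 in D135, with a change of 0.95 ± 0.13 from D105 to D135 (adjusted p = 0.00184). IDH3G, the other regulatory subunit, stood at 11.5, 15.3 and 10.0, then 14.3, 12.3 and 15.7, then 23.5, 27.0 and 22.1 FPKM, with a change of 0.74 ± 0.16 (adjusted p = 0.00986). For both, every D135 library was above every earlier library. IDH3A, the catalytic subunit, stood at 19.9, 20.0 and 21.5 FPKM in D85, at 20.1, 12.6 and 12.8 in D105 and at 14.8, 17.3 and 13.2 in D135. D105 replicate 1 was at the D85 level while the other D105 libraries were below all D135 libraries. The change from D105 to D135 was 0.02 ± 0.18 (adjusted p = 0.942), with a confidence interval from -0.40 to 0.44 that does not meet the interval of IDH3B, from 0.66 to 1.24; the difference between the subunits was not tested. From D85 to D135 it was -0.42 ± 0.18 (adjusted p = 0.0888), called with only the compared days (adjusted p = 0.0311) and without D105 replicate 1 (adjusted p = 0.0203). That change lay near the shift of the median locus, and it was 0.02 with median-of-ratios scaling (adjusted p = 0.951) and -0.14 with quantile normalization (adjusted p = 0.638).

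The next step is taken by the 2-oxoglutarate dehydrogenase complex, built of OGDH, DLST and the shared subunit DLD. OGDH, its dehydrogenase subunit, stood at 28.2, 35.7 and 25.9 FPKM in D85, at 34.3, 27.1 and 30.6 in D105 and at 40.4, 43.8 and 40.4 in D135. The rise of 0.43 ± 0.14 (adjusted p = 0.0375) was lost with a replicate block (adjusted p = 0.0686). It was lost without D85 replicate 1 (0.0510), D105 replicate 2 (0.105), D105 replicate 3 (0.0821), D135 replicate 1 (0.0704), D135 replicate 2 (0.108) or D135 replicate 3 (0.0725). DLST, the succinyltransferase core, stood at 23.4, 23.8 and 21.1, then 25.6, 23.6 and 24.5, then 26.3, 18.3 and 23.9 FPKM. The days overlapped and the change was -0.11 ± 0.13 (adjusted p = 0.518, confidence interval from -0.42 to 0.19). With median-of-ratios scaling the change turned positive, at 0.31 (adjusted p = 0.0999), and that from D85 to D135 was called at 0.44 (adjusted p = 0.0228). The complex thus held DLD and OGDH, which rose, beside DLST, which did not pass the test.

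Succinyl-CoA is turned into succinate by a ligase with a common alpha subunit, SUCLG1, and a beta subunit that sets the nucleotide, SUCLA2 for ADP or SUCLG2 for GDP. SUCLA2 stood at 20.5, 20.2 and 22.6 FPKM in D85, at 21.6, 24.6 and 23.7 in D105 and at 39.7, 52.5 and 46.8 in D135, with a change of 0.96 ± 0.12 (adjusted p = 0.00143). SUCLG2 stood at 6.74, 5.60 and 7.48, then 7.69, 6.37 and 5.73, then 9.13, 6.14 and 9.88 FPKM, with a change of 0.29 ± 0.18 (adjusted p = 0.244). SUCLA2 was thus apart in all D135 libraries, while D135 replicate 2 put SUCLG2 within the earlier range. SUCLG2 was called with median-of-ratios scaling (0.68, adjusted p = 0.0385). SUCLG1 stood at 30.4, 30.7 and 20.0, then 34.8, 31.9 and 32.3, then 52.4, 57.8 and 40.8 FPKM. Its rise of 0.58 ± 0.19 (adjusted p = 0.0402) was lost without a filter on low values (adjusted p = 0.0582). It was also lost without D105 replicate 1 (0.0734), D105 replicate 2 (0.0932), D105 replicate 3 (0.0927), D135 replicate 1 (0.0983) or D135 replicate 2 (0.125).

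FH, fumarase, stood at 30.7, 24.8 and 21.1 FPKM in D85, at 25.2, 25.8 and 25.3 in D105 and at 34.5, 42.8 and 34.6 in D135. The D105 libraries were nearly identical, and the rise of 0.53 ± 0.14 (adjusted p = 0.0224) was lost without D105 replicate 1 (adjusted p = 0.0586), D105 replicate 3 (0.0563) or D135 replicate 2 (0.0747). MDH2, the mitochondrial malate dehydrogenase that closes the cycle, stood at 31.5, 41.0 and 28.8, then 50.3, 45.9 and 32.9, then 79.7, 82.8 and 84.7 FPKM. Its D135 libraries agreed closely, all far above D105, and the change was 0.94 ± 0.18 (adjusted p = 0.00616).

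Of the 7 genes of the shuttles and their cytosolic partners, 4 rose from D105 to D135, with a median change of 0.59. MDH1, the cytosolic malate dehydrogenase, had the highest mean of the 34 genes on every day, at 85.2, 76.4 and 91.5 FPKM in D85, 74.8, 72.4 and 72.8 in D105 and 106, 131 and 97.4 in D135. D105 was the lowest day, with a change to D135 of 0.59 ± 0.12 (adjusted p = 0.00867). GOT1, the cytosolic aspartate aminotransferase, stood at 15.6, 16.0 and 18.3, then 17.2, 19.1 and 24.9, then 39.4, 35.3 and 37.6 FPKM, and its change was 0.86 ± 0.14 (adjusted p = 0.00361). GOT2, the mitochondrial aminotransferase, stood at 30.9, 31.4 and 17.1 FPKM in D85, at 18.5, 27.6 and 23.0 in D105 and at 88.8, 86.1 and 50.3 in D135. Its change was 1.64 ± 0.30 (adjusted p = 0.00543), the largest of the 34 genes on this scale, with a wide confidence interval from 0.95 to 2.33. With quantile normalization IDH2 changed by more (1.78, against 1.70 for GOT2). D135 replicate 3 was well below the other D135 libraries, yet above every earlier library.

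The glycerol phosphate shuttle joins the cytosolic dehydrogenase GPD1 and the mitochondrial GPD2. The locus of GPD1, which the table joins with SMARCD1 and LOC101119459, stood at 5.14, 6.90 and 5.48 FPKM in D85, at 5.83, 6.29 and 5.83 in D105 and at 11.9, 15.8 and 12.8 in D135. Every D135 library was above every earlier one, and the change was 1.04 ± 0.13 (adjusted p = 0.00164). Which of the joined genes this came from cannot be told from the table. GPD2 stood at 6.67, 6.14 and 5.46, then 6.25, 4.88 and 8.13, then 8.38, 9.89 and 7.06 FPKM. D105 and D135 overlapped and the change was 0.36 ± 0.18 (adjusted p = 0.143), called with median-of-ratios scaling (0.75, adjusted p = 0.0278) and quantile normalization (0.68, adjusted p = 0.0405).

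ACO1, the cytosolic aconitase that also binds iron-responsive RNA elements, ranged from 12.7 to 17.4 FPKM over all libraries, with a change of -0.11 ± 0.11 from D105 to D135 (adjusted p = 0.452). With median-of-ratios scaling its sign turned, at 0.30 (adjusted p = 0.127), and its change from D85 to D135 was called at 0.39 (adjusted p = 0.0443). IDH1, the cytosolic NADP-dependent enzyme, stood at 5.62, 8.58 and 5.73 FPKM in D105 and at 5.07, 11.9 and 7.79 in D135, with a change of 0.23 ± 0.27 (adjusted p = 0.529). In both D105 and D135 replicate 2 was the highest library for IDH1, and these are the libraries with the most adipocyte marker signal of their day. D105 replicate 2 also had the most tendon and cartilage (321 FPKM) and fibroblast (3997 FPKM) marker signal of its day, while D135 replicate 2 did not. What part any of these tissues had in the values was not tested.

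Of the enzymes that add to or draw on the cycle's intermediates, neither was called between D105 and D135, and both changes were close to that of the median locus. ME1, the cytosolic malic enzyme that makes NADPH and pyruvate from malate, stood at 2.05, 1.72 and 1.61 FPKM in D85, at 1.19, 1.37 and 1.02 in D105 and at 0.570, 0.560 and 1.08 in D135. Every D105 library was below every D85 library, and D135 replicate 3 stayed within the D105 range. From D85 to D135 ME1 fell by 0.70 on the log2 scale (SE 0.15, adjusted p = 0.00628). The adjusted p was 0.0557 with median-of-ratios scaling (-0.46) and 0.0666 with quantile normalization (-0.40). The later step, -0.35 ± 0.15 (adjusted p = 0.0945), was called without D135 replicate 3 (-0.48, adjusted p = 0.0351). It was -0.14 with median-of-ratios scaling (adjusted p = 0.588) and -0.04 with quantile normalization (adjusted p = 0.871).

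PC, pyruvate carboxylase, which makes oxaloacetate from pyruvate, stood at 1.49, 1.87 and 1.69 FPKM in D85, at 1.82, 2.23 and 1.70 in D105 and at 1.52, 1.37 and 1.32 in D135. All D135 libraries lay below all D105 libraries, the only member of which that was true, while 47.7% of all tested loci had that pattern. The change was -0.28 ± 0.11 (adjusted p = 0.0812), close to the median of all tested loci, and it was -0.00 with median-of-ratios scaling and 0.04 with quantile normalization. A locus that the table describes as pyruvate carboxylase, LOC105604120, reached at most 0.775 FPKM, and loci described as like PDHA1 and PDHB reached at most 0.0175.

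From D85 to D135, 20 members rose and 1 fell, where 6.90% of all tested loci were called higher and 39.7% lower. The median change of the members was 0.54, against -0.35 over all tested loci. This comparison shares its D135 libraries with that of D135 against D105. IDH2 had the largest change from D85, 1.84 ± 0.14 (adjusted p = 0.000161), and GOT2 followed with 1.47 ± 0.30 (adjusted p = 0.00537). MPC1 changed by 1.24 ± 0.12 (adjusted p = 0.000266), PDHA1 by 1.15 ± 0.11 (adjusted p = 0.000256) and MDH2 by 1.28 ± 0.18 (adjusted p = 0.00114). MDH1, which had its lowest values in D105, changed by only 0.39 ± 0.12 (adjusted p = 0.0324). That call was lost with a replicate block (adjusted p = 0.0705), with only the compared days (0.0669) and without D85 replicate 1 (0.0686), D85 replicate 2 (0.101), D135 replicate 1 (0.0565) or D135 replicate 2 (0.0883). OGDH lost its call without D85 replicate 1 (adjusted p = 0.0678), D85 replicate 3 (0.0702) or D135 replicate 2 (0.0717), and FH lost its call without D135 replicate 2 (0.0578). Over the 3 days together, the F test called 21 members, where 43.2% of all tested loci were called.

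Whether the members changed more in the later interval than in the earlier was tested as a difference of both changes, which share the D105 libraries. By limma 0 members were called higher and 0 lower, where 0.0764% and 0.275% of all tested loci were called. The unadjusted p was under 0.05 for 12 members, all with the larger change in the later interval, among 24.4% of all tested loci. MPC2 came closest, with an adjusted p of 0.0667, and was called with library weights (0.97, adjusted p = 0.0447). No single member thus passed a test that its changes in both intervals differ.

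Ratios within a library compare enzymes that share a reaction or oppose each other, and do not depend on the scaling of libraries beyond the pseudocount. Over 8 such pairs, 3 differed between days by an exact permutation test with p-values adjusted over the pairs. IDH3A exceeded IDH2 by 5.28, 4.50 and 7.20 times in D85 and by 4.80, 2.27 and 2.46 times in D105, and the FPKM ratio was 0.882, 1.05 and 0.925 in D135. The NAD-dependent catalytic subunit thus had a clear lead in every earlier library. In D135 it led only in replicate 2, by 1.05 times. The ratio differed over the 3 days (exact permutation p = 0.00714, adjusted p = 0.0476). For IDH2 over IDH1, the ratio was 0.553, 0.859 and 0.547, then 0.745, 0.646 and 0.904, then 3.30, 1.38 and 1.83. The cytosolic enzyme had more FPKM in all 6 earlier libraries and the mitochondrial enzyme in all 3 D135 libraries (exact permutation p = 0.0179, adjusted p = 0.0476).

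SUCLA2 over SUCLG2 gave 3.04, 3.61 and 3.02 in D85, 2.81, 3.86 and 4.13 in D105 and 4.35, 8.56 and 4.74 in D135, so the ADP-linked subunit had the higher level throughout and its lead was widest in D135 (exact permutation p = 0.0179, adjusted p = 0.0476). MDH2 over MDH1 had mean log2 ratios of -1.31 ± 0.39, -0.78 ± 0.30 and -0.42 ± 0.23 (SD, n = 3) in the days in order, and did not pass (exact permutation p = 0.0464, adjusted p = 0.0800). GPD1 over GPD2 (adjusted exact permutation p = 0.0800), GOT2 over GOT1 (0.295), PDK4 over PDK2 (0.722) and PDP1 over PDP2 (1.0) did not pass either. The calls rest on few libraries. None of the pairs passed without D85 replicate 1, D85 replicate 3, D105 replicate 2, D105 replicate 3 or D135 replicate 2, where the adjusted exact permutation p of IDH3A over IDH2 was 0.0857, 0.0857, 0.0571, 0.0571 and 0.0571. Without D105 replicate 1, IDH3A over IDH2 alone passed (0.0286), and without D85 replicate 2, 2 pairs passed. With a pseudocount of 0.1, SUCLA2 over SUCLG2 had an adjusted p of 0.0762.

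**Figure D3:**
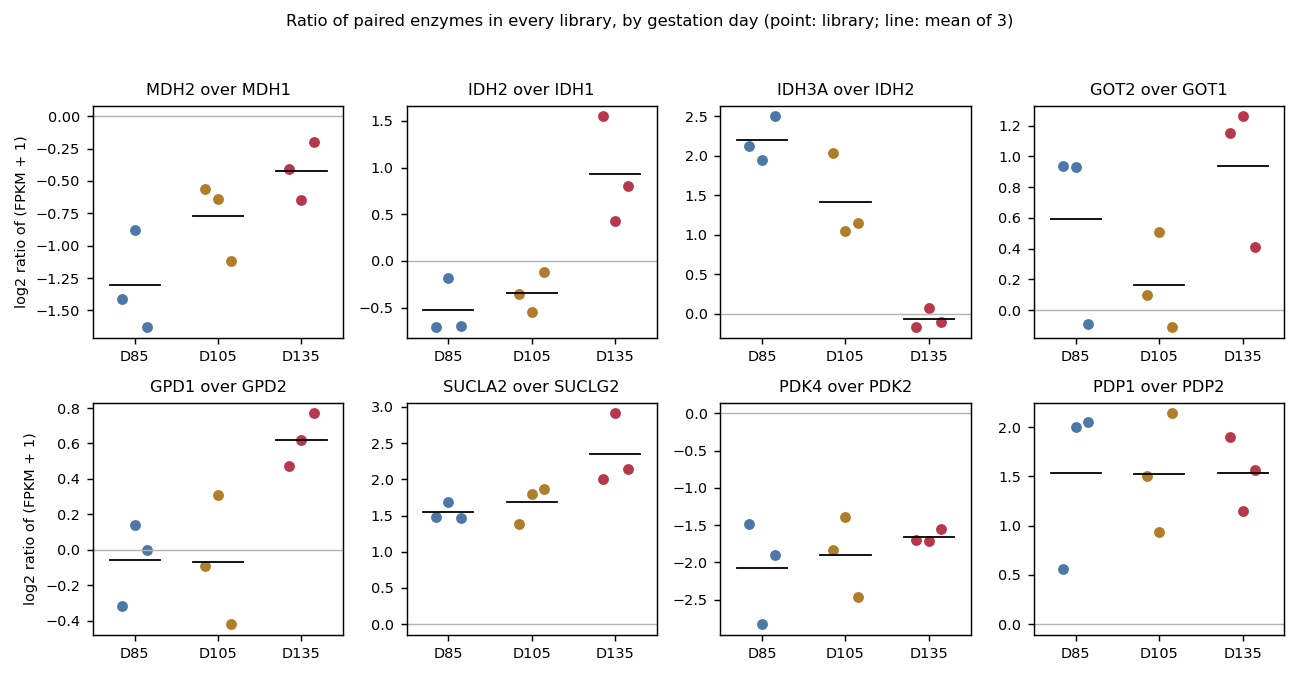
Log2 ratio of (FPKM + 1) of the first gene over the second for 8 enzyme pairs (y axis), by gestation day (x axis). Points are libraries and lines are means of 3. IDH3A over IDH2 falls from a mean of 2.19 in D85 to -0.07 in D135, while PDP1 over PDP2 is level at 1.53 to 1.54.

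Genes linked to the pathway were read from further lists, for D135 against D105. The counts of these lists are to be read against the 4.47% of all tested loci called higher and the 35.0% called lower. Of 12 tested genes of other cycle and linked enzymes, 6 rose and 2 fell, with a median change of 0.35. SDHB, the iron-sulfur subunit of succinate dehydrogenase in a locus joined with PADI2, stood at 8.20, 7.04 and 7.73 FPKM in D105 and 14.7, 19.5 and 15.1 in D135 (1.0 ± 0.12, adjusted p = 0.00146). SDHD, a membrane anchor of the same enzyme, rose by 0.78 ± 0.11 (adjusted p = 0.00199). None of the 13 tested cofactor and assembly factors was called, with a median of -0.02. ISCU, the iron-sulfur cluster scaffold, changed by 0.12 ± 0.12 (adjusted p = 0.456), although median-of-ratios scaling called it higher (0.53, adjusted p = 0.0328). The change of SDHAF2, which puts the flavin on succinate dehydrogenase, was -0.02 ± 0.22 (adjusted p = 0.954).

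Of 5 mitochondrial carriers tested, 2 rose and 2 fell, with a median of -0.49, and the share that fell is near the 35.0% of all tested loci. SLC25A11 and SLC25A12, the oxoglutarate and aspartate-glutamate carriers of the malate-aspartate shuttle, rose by 0.58 ± 0.15 (adjusted p = 0.0158) and 0.54 ± 0.12 (adjusted p = 0.00944). The first lost its call without D135 replicate 2 (adjusted p = 0.0530). SLC25A10, the dicarboxylate carrier, fell by 0.84 and SLC25A22, a glutamate carrier, fell by 0.55 on the log2 scale (adjusted p = 0.0229 and 0.0153). With median-of-ratios scaling the adjusted p of SLC25A10 was 0.155 and that of SLC25A22 was 0.0769. SLC25A22 also lost its call without D135 replicate 2 (0.0582), and SLC25A10 without D105 replicate 1 (0.0610), D105 replicate 3 (0.0649), D135 replicate 2 (0.0611) or D135 replicate 3 (0.0703).

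Of 6 genes of lactate and pyruvate handling, 3 rose and 0 fell, with a median of 0.65. LDHA, the muscle subunit of lactate dehydrogenase, stood at 67.6, 66.6 and 72.3 FPKM in D105 and at 134, 242 and 206 in D135 (1.44 ± 0.24, adjusted p = 0.00401). SLC16A3, a lactate exporter of glycolytic fibres, rose from 1.05, 0.899 and 0.740 to 2.74, 4.46 and 3.30 FPKM (1.23 ± 0.16, adjusted p = 0.00163). LDHB, the heart subunit, rose by 0.72 ± 0.22 (adjusted p = 0.0321), a call lost with quantile normalization (0.0563) and without D105 replicate 1 (0.0803), D105 replicate 3 (0.0922), D135 replicate 1 (0.0909) or D135 replicate 2 (0.0823). Enzymes that interconvert pyruvate and lactate thus rose between the same days as the carrier that takes pyruvate into mitochondria.

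Of 7 acetyl-CoA and ketone body enzymes, 3 rose and 1 fell, with a median of 0.51. OXCT1, which activates ketone bodies for oxidation, rose from 3.84, 6.86 and 5.77 to 11.5, 9.57 and 10.5 FPKM (0.85 ± 0.20, adjusted p = 0.0131). ACAT1, the next enzyme of ketone body use, rose by 0.59 ± 0.17 (adjusted p = 0.0279), and CRAT, carnitine acetyltransferase, by 0.51 ± 0.16 (adjusted p = 0.0378). ACAT1 lost its call without D105 replicate 2 (0.0728), D105 replicate 3 (0.0772) or D135 replicate 2 (0.0883). CRAT lost its call without D85 replicate 2 (0.0529), D105 replicate 2 (0.107), D105 replicate 3 (0.0751), D135 replicate 2 (0.105) or D135 replicate 3 (0.0586). ACLY, which splits exported citrate into cytosolic acetyl-CoA, stood at 21.7, 30.0 and 18.1 FPKM in D105 and at 9.11, 13.6 and 10.5 in D135, and fell by 1.0 on the log2 scale (SE 0.20, adjusted p = 0.00678). With median-of-ratios scaling its change was -0.58 (adjusted p = 0.0957).

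Among 13 regulators, 2 rose and 1 fell, with a median of -0.17. ESRRA, a nuclear receptor that drives genes of oxidative metabolism, stood at 2.41, 2.27 and 2.56 FPKM in D105 and at 4.13, 3.76 and 3.84 in D135 (0.52 ± 0.11, adjusted p = 0.00997). PPARA, a fatty acid receptor, rose by 0.34 ± 0.11 (adjusted p = 0.0446), a call that only the fit without D135 replicate 2 kept among those without a library (adjusted p up to 0.122, without D135 replicate 1). TFAM, which packages mitochondrial DNA, fell by 0.45 on the log2 scale (SE 0.14, adjusted p = 0.0340), but by median-of-ratios scaling the change was -0.07 (adjusted p = 0.811), and the call was lost without D105 replicate 2 (0.0806), D105 replicate 3 (0.101), D135 replicate 1 (0.0971) or D135 replicate 2 (0.0998).

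The last list holds genes of general mitochondrial proteins outside the pathway, and whether their RNA follows mitochondrial content was not tested. Of 16 tested, 6 rose and 0 fell, with a median of 0.20, below the 0.53 of the pathway members, a difference that was not tested. VDAC1, the main pore of the outer membrane, stood at 16.9, 16.6 and 16.2 FPKM in D105 and at 28.9, 27.4 and 32.3 in D135 (0.79 ± 0.10, adjusted p = 0.00143). VDAC2 rose by 0.61 ± 0.12 (adjusted p = 0.00711), VDAC3 by 0.59 ± 0.13 (adjusted p = 0.0106) and MFN2, a fusion protein, by 0.78 ± 0.24 (adjusted p = 0.0341), the last lost without D105 replicate 1 (0.0802), D105 replicate 2 (0.0960), D135 replicate 2 (0.0742) or D135 replicate 3 (0.0711). In none of these 7 further lists was a gene called between D85 and D105.

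**Figure D4:**
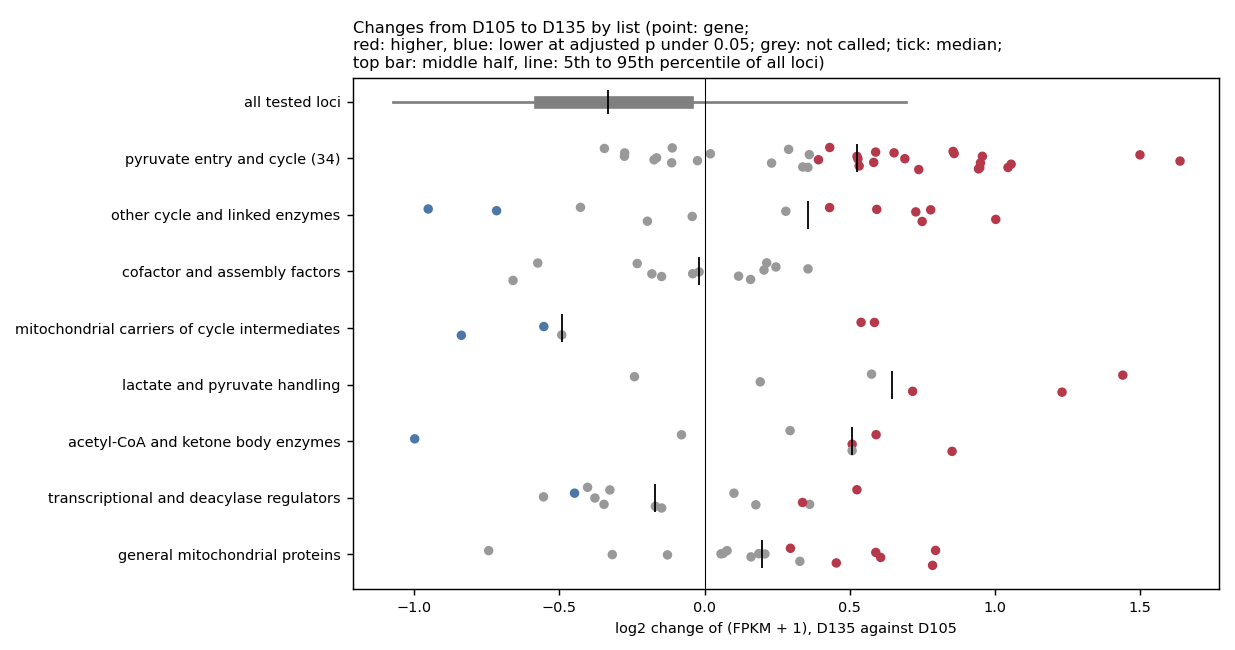
Change in log2(FPKM + 1) from D105 to D135 for each tested gene of the pathway and of the 7 further lists, with a tick at the median of each list. Red genes were called higher and blue genes lower at an adjusted p under 0.05, and the bar and line at the top show the spread of all tested loci around their median of -0.33. The pathway has 20 red and 0 blue genes of 34, and the cofactor and assembly factors have 0 of 13.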

How the data were processed

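Gene expression was measured in 9 libraries of fetal sheep longissimus dorsi. Titles and ages in the labels gave 3 libraries per gestation day. FPKM values per locus were deposited by the authors, per the file headers. Cutadapt, Bowtie2 and TopHat2 were used, per the submitters' processing notes; their versions, the genome build, assembler and counting method were not given in the sources used here. Coordinates and sequences are therefore not printed. The design text names more than 1 sequencer but assigns no library to either, and a batch was not tested.

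The filter kept the 13086 of 22605 loci that reached an FPKM of 1 in 3 or more libraries. Their log2(FPKM + 1) values were compared with limma (version 3.58.1, under R 4.3.3; eBayes with a trend, all 9 libraries in 1 fit, two-sided, Benjamini-Hochberg over all loci, threshold 0.05). The fit and the threshold on adjusted p were tested on data simulated for the loci that had passed the filter. Pair ratios were tested by exact permutation over 1680 assignments, smallest p 0.00357. All 34 members were named. Of each further list, up to 4 called genes with the largest change were named, or the 2 with the highest mean, and of marker lists the 2 with the highest mean, of which ACTA1 and MYLPF are printed. Some genes that this rule names are not reported here. The members and lists were chosen with earlier results of these data known. Alternatives changed the pseudocount, filter, scaling, variance model, library weights, libraries fitted, replicate block and each library in turn. Python 3.11.15 with pandas 2.3.3, numpy 2.4.6 and matplotlib 3.10.9 was used for tables and figures.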

Additional observations from a re-analysis of the deposited data

How the results depend on the processing

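Depth in reads is unknown, so low genes such as PDK3, PDK4 and ME1 carry an error that FPKM does not show, and 3 libraries per day limit every test. The direction of several members depended on scaling. With median-of-ratios scaling the changes of DLST and ACO1 from D85 to D135 became 0.44 and 0.39, both called. Those of PC, IDH3A and PDP1 also turned positive, at 0.13, 0.02 and 0.02, and were not called. That scaling sets the median locus, here at -0.35, to no change. From D105 to D135 it also turned the changes of PDK2, PDK4, PDP1 and PDP2 positive, without a call.

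From D105 to D135, 15 of the 20 calls held in all 17 alternatives, and DLAT, FH, OGDH, PDK1 and SUCLG1 lost theirs in some. Without 1 library, 16 to 20 members were higher and 0 to 1 lower, the 1 being ME1 without D135 replicate 3. From D85 to D135, 17 of 20 higher calls held in all 17 alternatives. The count of lower members was 0 with median-of-ratios scaling, 0 with quantile normalization, 2 without a trend, 2 with library weights, 3 with only the compared days, and 1 to 2 without 1 library; the cause was not tested. The difference between intervals called 1 member higher with library weights. Of the pair ratios, 0 to 3 passed without 1 library, where fewer assignments (560) are possible.

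Same-numbered libraries did not deviate together (r from -0.07 to 0.06 over 9 pairs, against -0.09 to 0.05 over 18 other pairs). Of 9 libraries, 3 correlated best with their own number. These values show no pairing by number, and whether same-numbered libraries share an origin or batch was not tested. With a replicate block, 0 members were higher and 0 lower from D85 to D105, 18 and 0 from D105 to D135, and 20 and 1 from D85 to D135.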

Other observations

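From D85 to D135, a comparison that shares its D135 libraries with the later interval, 5 of 7 acetyl-CoA and ketone body enzymes rose and 1 fell, with a median change of 0.63. Of all tested loci 6.90% were called higher and 39.7% lower in that comparison, with a median of -0.35. Of the 13 tested regulators 2 rose and 4 fell (median -0.23), so the share that fell was no higher than over all loci, and of the 16 general mitochondrial proteins 5 rose and 0 fell (median 0.12). Of the 13 tested cofactor and assembly factors 1 rose and 1 fell. SUCLA2 had another, unused locus, listed at 1.52, 2.38 and 3.52 FPKM in D85, at 0 in all D105 libraries and at 0, 1.97 and 0 in D135.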
